A study of Picromerus lewisi with 6 samples.

Results

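The redox enzymes and iron proteins described here are 66 of 22242 transcript clusters measured in the venom glands of the predatory stink bug Picromerus lewisi. They were chosen by description alone: the first protein match lies in Halyomorpha or Nezara, stink bugs related to Picromerus, and the Swiss-Prot name is that of a superoxide dismutase, catalase, peroxidase, peroxiredoxin, thioredoxin, glutaredoxin, glutamate--cysteine ligase, methionine sulfoxide reductase, ferritin, transferrin or iron-sulfur protein. Of the 76 clusters whose name matched, 5 subunits of the respiratory chain were dropped and 5 had their first match in another species. The last 3 of the 66 matched through letters only: a kinase and 2 phosphatase clusters of pyruvate dehydrogenase carry "acetyl-transferring" in their names, which contains "transferrin". They are counted as members but belong to no role below, which leaves 63 clusters with a redox or iron name. Among these 63 none was named frataxin or glutathione peroxidase.

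The study set adult glands, with 3 libraries, against glands of 5th instar nymphs, the last stage before the adult moult, also with 3. All libraries were total RNA of venom glands, with no treatment or strain given in the labels. The labels do not say whether a library came from 1 animal or a pool, or whether libraries of a stage came from separate animals, so every p-value below reflects variation among the deposited libraries alone, possibly technical. In bulk tissue, fewer cells of a type and less RNA per cell cannot be told apart.

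Superoxide dismutases turn superoxide into hydrogen peroxide, and catalase and the peroxiredoxins remove that peroxide. Most peroxiredoxins draw electrons from thioredoxin, which thioredoxin reductase recharges from NADPH; in Drosophila, which has no glutathione reductase, the same system also keeps glutathione reduced. Ferritin holds iron in a protein shell, transferrin carries it in the haemolymph, and the iron-sulfur assembly proteins build iron and sulfur into clusters that other enzymes use.

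Values are FPKM, a unit that corrects fragments for the length of a cluster and for library depth. Recovered fragments in clusters of at least 400 bases ranged from 13335550 to 18655466 per library, so total depth was similar. Adult replicate 1 stood apart: 22.2% of all clusters reached an FPKM of 1 in it, against 81.6% in adult replicate 2, 39% in adult replicate 3 and 48.8% to 63.1% in the nymph libraries. Among the 66 members, 33 reached an FPKM of 1 in adult replicate 1, 57 in adult replicate 2 and 49 in adult replicate 3, against 53 or 54 in each nymph library. Adult replicate 1 was the lowest library, or tied for the lowest, in 55 of the 66. Levels are therefore given below as rescaled FPKM, obtained by dividing each library by a median-ratio size factor from the clusters that were above 0 in all 6. That factor was 0.2835 in adult replicate 1 and between 0.9902 and 1.643 in the others. Muscle markers, 38 clusters taken by name, had a summed rescaled FPKM of 392.4, 130.8 and 203.4 for adult libraries, against 386.8, 335.9 and 625.1 for nymph libraries. Per adult library 9 to 17 of them were listed at 0, and 11 to 14 per nymph library. The names also took a non-muscle myosin heavy chain (Cluster-9520.5292). Of 24 tested, 18 had a log2 difference below 0, adult minus nymph. Cluster-9520.5579, named muscle-specific protein 300 kDa, was at a deposited FPKM of 6.22, 30.5 and 28.3 in adults, against 13.2, 9.71 and 3.58 in nymphs. The muscle sum therefore does not stand for muscle as a whole. Fat body markers, 11 clusters, summed to 565, 388.4 and 463.9 for adult libraries, against 1317, 443 and 642.4 for nymph libraries, with 4 or 5 of them at 0 per adult library and 3 to 5 per nymph library. That sum rested mostly on 2 clusters named muscle fatty acid-binding protein, with mean deposited FPKM of 405.9 and 250.6. Hexamerin, the next, was at a deposited FPKM of 0.34 to 2.09 in adults, against 13.35 to 22.12 in nymphs. Vitellogenin-2 and vitellogenin-A1 went the other way, with 0 in every nymph library. The sum therefore does not stand for fat body as a whole. Cathepsins, 32 clusters used as gut markers by name alone, summed to 2002.6, 867 and 420.9 in adults, against 6788.7, 632.1 and 702.2 in nymphs. Nymph replicate 1 thus stood apart there. Per adult library 2 to 16 of them were at 0, and 2 to 11 per nymph library. Their directions were mixed: of 26 tested, 20 had a log2 difference below 0, adult minus nymph. Cluster-9520.6626 went the other way, at a deposited FPKM of 137.6, 76.8 and 13.2 in adults, against 8.47, 0 and 1.25 in nymphs. The cathepsin sum therefore does not stand for gut as a whole. The part of these tissues in the results below was not tested. Clusters with a serine protease, trypsin or venom name, used as the mark of the labelled tissue, were abundant in every library. Their sum over 106 clusters was 84715.9 to 305557.4 in adults, against 68216.5 to 130446.6 in nymphs. These names also took proteins of other roles, such as the mitochondrial serine protease HTRA2 (Cluster-5588.0) and an antitrypsin (Cluster-9520.5570).

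No member passed the stage test. In the set, 23 of 66 members had a mean deposited FPKM of at least 10 and 2 had 100 or more. The median of these means was 5.07 over the members, against 2.24 over all clusters. Over clusters with a first match in Halyomorpha or Nezara it was 2.83. Of the 66, 56 reached an FPKM of 1 in 3 or more libraries and were tested with limma on log2(rescaled FPKM + 1), and 0 were called at a Benjamini-Hochberg adjusted p under 0.05, higher or lower in adults. Over all 11961 tested clusters 0.234% were called, 0.1% higher and 0.134% lower in adults, so a count of 0 is near the background. At an unadjusted p under 0.05 there were 6 members of 56, against 9.05% of all tested clusters. A p that misses the threshold does not show equal levels. DESeq2 and edgeR were not run, since the deposited values are FPKM. Fragment numbers recovered from them, for clusters of at least 400 bases, were not tested.

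The differences in the set ran from -2.15 to 1.47 on the log2 scale, adult minus nymph. Their median was -0.44, against -0.29 over all tested clusters, and 36 of 56 lay below 0, against 61.6% of all. The stages did not overlap for 14 members, with adults below nymphs in 10 and above in 4; over all tested clusters this held for 14.1%, with adults below in 10.1% and above in 3.95%. Above a mean deposited FPKM of 5 it was 11 of 33 members and 18.8% of all clusters. Other scalings left fewer members without overlap: 6 with unscaled FPKM (10.7%, against 8.66% of all tested clusters), 6 with equal totals (10.7%, against 6.86%) and 11 with quantile normalization (19.6%, against 14.2%). Under all 4 scalings, 4 members did not overlap: catalase (Cluster-9520.5113), peroxiredoxin-6 (Cluster-9520.4351 and Cluster-6163.0) and the iron-sulfur protein NUBPL (Cluster-6214.0), with adults below nymphs in each. For NUBPL that direction was set by the filter, which it met through nymph libraries alone. The share of all tested clusters without overlap under all 4 scalings was not computed, so the count of 4 members has no background beside it.

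**Figure D1:**
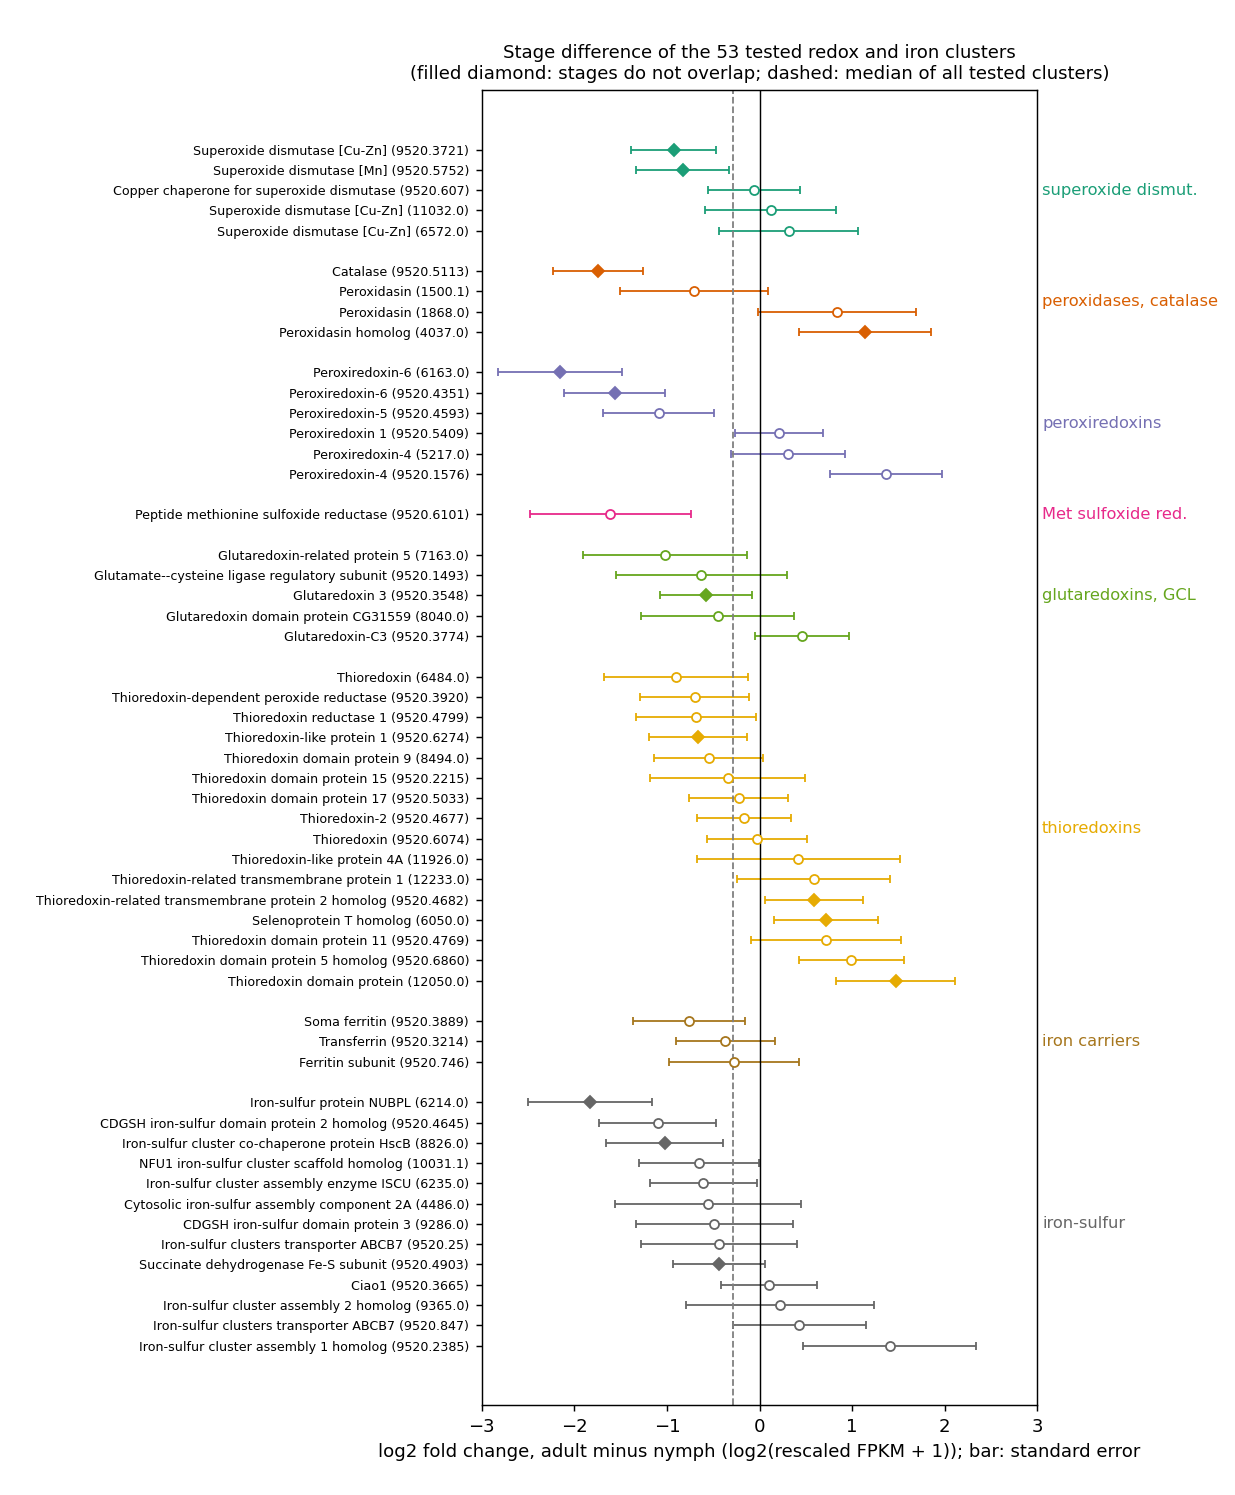
Log2 fold change, adult minus nymph, on the horizontal axis for the 53 tested clusters with a redox or iron name, with standard errors, grouped by role. Filled diamonds mark the 14 clusters whose stages did not overlap; the dashed line is the median of all tested clusters, -0.29. Both peroxiredoxin-6 clusters, NUBPL, catalase and methionine sulfoxide reductase lie furthest left, and a thioredoxin domain protein furthest right.

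Among the superoxide dismutases, which hold 6 clusters with their copper chaperone, the leading copper-zinc enzyme and the manganese enzyme had lower values in adults without passing the test. That copper-zinc enzyme (Cluster-9520.3721) was at a rescaled FPKM of 43.8, 45.9 and 51.6 in adults, against 105.5, 77.0 and 90.0 in nymphs. All adult libraries lay below all nymph libraries, with a log2 difference of -0.92 ± 0.46 SE (limma adjusted p = 0.619). After scaling to an equal total the stages overlapped. The manganese enzyme of mitochondria (Cluster-9520.5752) was at 9.74, 21.1 and 12.3 in adults, against 21.6, 29.2 and 25.1 in nymphs (log2 difference -0.83, limma adjusted p = 0.724). Adult replicate 2 lay just under nymph replicate 1 for that cluster, and the stages overlapped under the 3 other scalings. The copper chaperone that loads the copper-zinc enzyme (Cluster-9520.607) was at 7.94, 9.95 and 11.1 in adults, against 9.10, 8.20 and 13.4 in nymphs, with overlap and a log2 difference of -0.06 ± 0.50 SE, a sign that turned without adult replicate 1 or nymph replicate 3. The other copper-zinc clusters were scarce, and Cluster-3047.0, of 337 bases, was listed at 0 in every library but nymph replicate 2.

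Catalase was the member with the smallest p. Cluster-9520.5113, at 1704 bases the longest of 6 catalase clusters, was at a rescaled FPKM of 16.3, 13.1 and 18.1 in adults, against 66.1, 40.9 and 60.8 in nymphs. It averaged 15.8 ± 2.53 in adults, against 55.9 ± 13.3 in nymphs (SD, n = 3 libraries a stage). The highest adult library was below the lowest nymph library, on deposited FPKM too, where adults stood at 4.61, 21.5 and 28.2 and nymphs at 67.6, 55.7 and 60.2. The log2 difference was -1.74 ± 0.48 SE (limma unadjusted p = 0.00461, adjusted p = 0.26). These FPKM rest on 91, 452 and 747 fragments in adults, against 1452, 1498 and 1534 in nymphs. With each library left out in turn the difference stayed between -1.97 and -1.63, and the adjusted p ran from 0.171 to 0.771 (limma).

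The other 5 catalase clusters were short, at 369 to 564 bases, and none had an FPKM of 1 in 3 libraries, so they were not tested. Adult replicates 1 and 3 had a listed 0 for all 5, and adult replicate 2 for 3 of them. Over all clusters 67.7%, 12.1% and 59.1% were listed at 0 in adult replicates 1, 2 and 3, against 31.7%, 46.3% and 36.6% in nymph replicates 1, 2 and 3. Nymph libraries were not uniform either. On deposited FPKM, Cluster-4509.1 was at 0, 14.6 and 0 in nymphs, and Cluster-4509.0 at 0, 10.97 and 0.36. Cluster-5902.0 was at 10.04, 0 and 0 there, and Cluster-5902.1 at 3.85, 0 and 3.14. Only Cluster-10794.0 was above 0 in every nymph library, at 6.79, 5.02 and 0.61. Such clusters can be pieces or copies of 1 gene, and reads shared between them cannot be told apart. Peroxidasins, haem peroxidases that in Drosophila act in the extracellular matrix, had 3 clusters. The peroxidasin homolog Cluster-4037.0 was at 2.72, 3.22 and 1.66 in adults, against 0, 1.37 and 0.646 in nymphs, with no overlap and low levels throughout (log2 difference 1.14, limma adjusted p = 0.727). On deposited FPKM and on equal totals its stages overlapped. Cluster-1868.0 was led by adult replicate 3 at 7.21, against listed values of 0 in adult replicate 1 and in nymph replicates 1 and 2.

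Peroxiredoxin-6 was the most abundant transcript of the set. This 1-Cys peroxiredoxin reduces hydrogen peroxide and, in mammals, peroxidised phospholipids. Cluster-9520.4351 was at a rescaled FPKM of 276.9, 178.9 and 269.9 in adults, against 1085, 512.5 and 626.1 in nymphs. On deposited FPKM it ranked 157th, 208th and 143rd among all clusters in adults, against 73rd, 87th and 68th in nymphs. Its mean was 241.9 ± 54.7 in adults, against 741.3 ± 303.3 in nymphs (SD, n = 3), and every adult library was below every nymph library. The log2 difference was -1.56 ± 0.55 SE (limma adjusted p = 0.371). Nymph replicate 1, the library richest in cathepsins, was the highest of the 6, and without it the difference was -1.27 (limma adjusted p = 0.47). 

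A second peroxiredoxin-6, Cluster-6163.0, had the largest negative difference in the set. It was at 0, 2.06 and 1.26 in adults, against 7.37, 8.47 and 6.70 in nymphs, again without overlap. The log2 difference was -2.15 ± 0.67 SE (limma adjusted p = 0.314), and it was -1.76 without adult replicate 1, where the cluster is listed at 0. Its adult values rest on 0, 35 and 25 fragments. Both clusters thus gave adults below nymphs, one at high and one at low abundance. Peroxiredoxin-5 of mitochondria (Cluster-9520.4593) was at 23.1, 25.7 and 83.7 in adults, against 55.5, 90.7 and 99.99 in nymphs, with adult replicate 3 among the nymph values (log2 difference -1.09, limma adjusted p = 0.684).

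The other clusters of this role group had log2 differences of 0.21, 0.30 and 1.37, none past the threshold. Peroxiredoxin 1 (Cluster-9520.5409), a 2-Cys enzyme served by thioredoxin, was at 61.0, 47.4 and 38.4 in adults, against 49.4, 33.7 and 42.8 in nymphs. The stages overlapped, and the log2 difference of 0.21 ± 0.48 SE turned below 0 on deposited FPKM and on equal totals. Peroxiredoxin-4 (Cluster-9520.1576), which in mammals resides in the endoplasmic reticulum, was at 29.1, 39.8 and 9.39 in adults, against 10.3, 7.72 and 6.57 in nymphs. Adult replicates 1 and 2 were high and adult replicate 3 lay inside the nymph range (log2 difference 1.37 ± 0.60 SE, limma adjusted p = 0.537). Without adult replicate 2 the difference was 0.93. Cluster-5217.0, named peroxiredoxin-4 in Swiss-Prot and a mitochondrial thioredoxin-dependent peroxide reductase in its closest protein match, was at 2.55 to 7.13 in all libraries. The name of that cluster is uncertain.

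**Figure D2:**
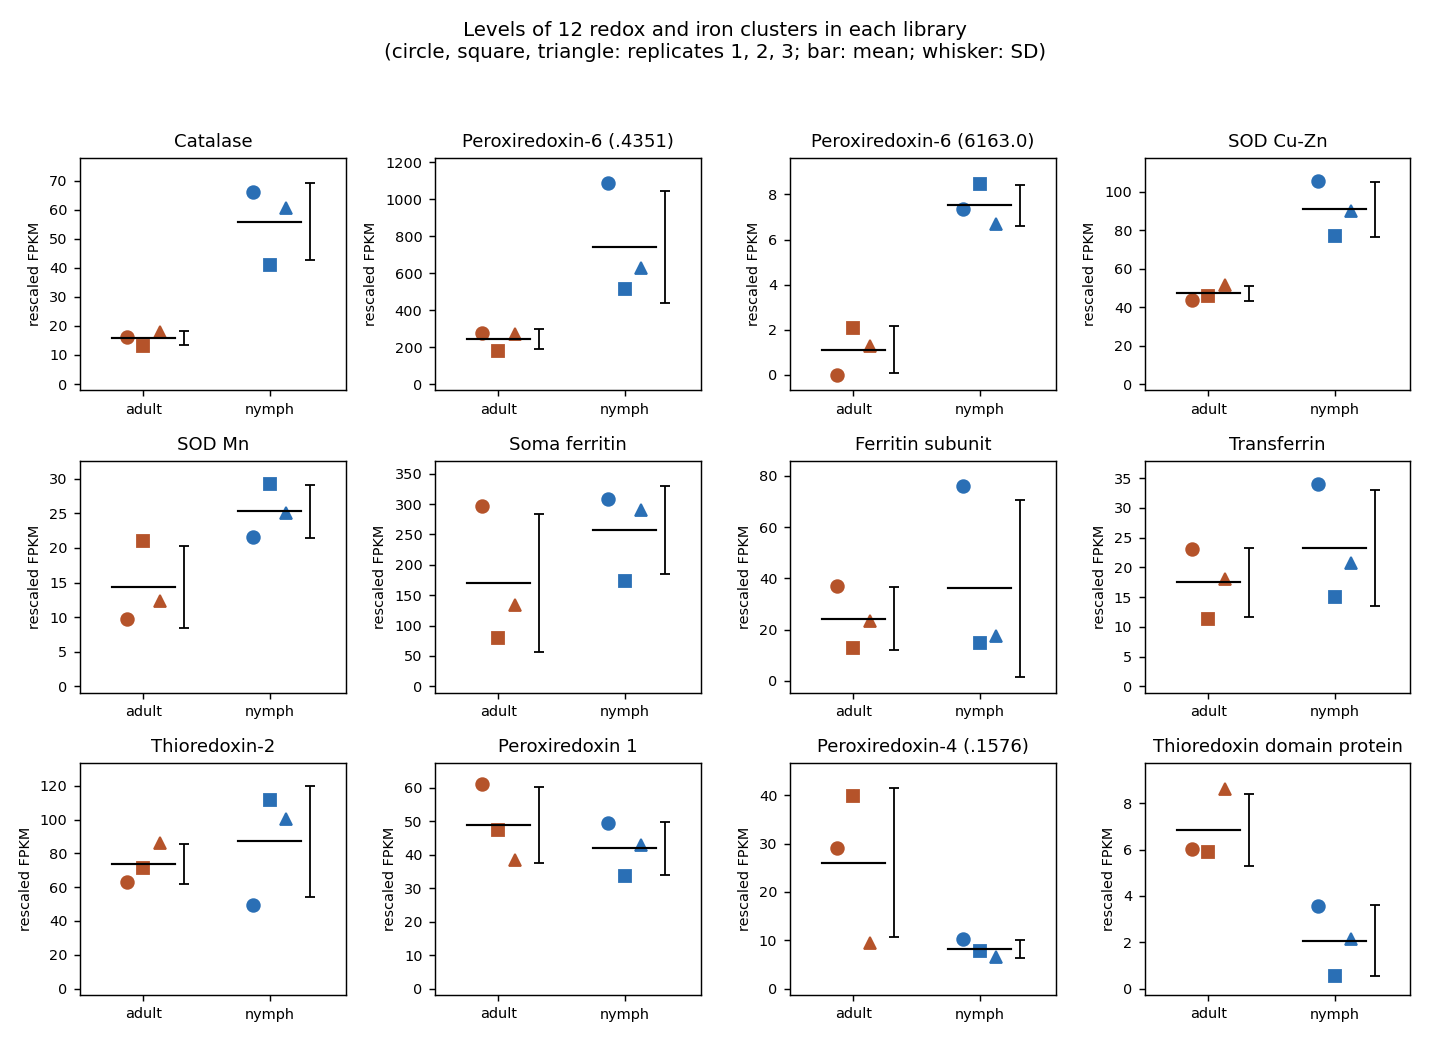
Rescaled FPKM (vertical axis, linear) of 12 members in each library, adults on the left and nymphs on the right, with symbols for replicates, bars for means and whiskers for SD. Catalase, both peroxiredoxin-6 clusters and the 2 superoxide dismutases show adults below nymphs without overlap; the ferritins, transferrin, thioredoxin-2, peroxiredoxin 1 and peroxiredoxin-4 overlap; the thioredoxin domain protein shows adults above nymphs.

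Because library scaling moves every level, ratios of 2 members within a library were also taken; 11 were computed, with pairs chosen after the values were seen, and they are given without a test. Catalase over the copper-zinc superoxide dismutase was 0.371, 0.285 and 0.351 in adults, against 0.627, 0.531 and 0.675 in nymphs. This ratio of 2 transcripts was thus lower in every adult library than in any nymph library, adult replicate 1 included. It leaves out the peroxiredoxins and the manganese superoxide dismutase, and enzyme amounts were not measured. Peroxiredoxin-6 (Cluster-9520.4351) over peroxiredoxin 1 was 4.54, 3.78 and 7.03 in adults, against 22.0, 15.2 and 14.6 in nymphs. Peroxiredoxin-4 (Cluster-9520.1576) over peroxiredoxin-6 was 0.105, 0.222 and 0.0348 in adults, against 0.00947, 0.0151 and 0.0105 in nymphs. These ratios do not change with a scaling factor of the library. The copper-zinc enzyme over its chaperone was 5.52, 4.61 and 4.65 in adults, against 11.6, 9.38 and 6.73 in nymphs. In all, 5 of the 11 ratios did not overlap between stages, the last being peroxiredoxin-6 over thioredoxin-2, with 4.38 as its highest adult and 4.61 as its lowest nymph value. These 5 are not independent of each other: 3 share peroxiredoxin-6 and the other 2 share the copper-zinc superoxide dismutase. Both of these members already had stages without overlap, so the choice of pairs favoured such ratios. Ratios of other clusters were not computed, so 5 of 11 has no background beside it.

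**Figure D3:**
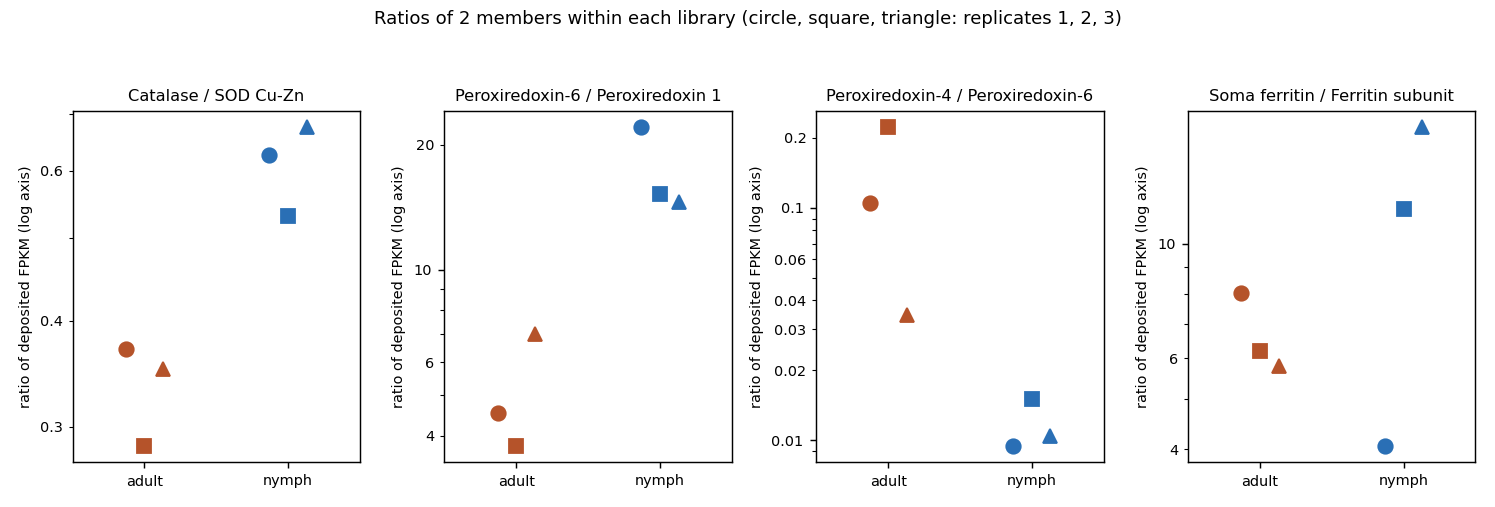
Ratios of deposited FPKM of 2 members within each library (log axis), adults left and nymphs right, symbols for replicates. Catalase over superoxide dismutase and peroxiredoxin-6 over peroxiredoxin 1 are lower in all adult libraries, peroxiredoxin-4 over peroxiredoxin-6 is higher, and soma ferritin over ferritin subunit overlaps.

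Thioredoxins, 16 clusters that were all tested, had a median of -0.10, with 9 below 0. The abundant ones, small carriers of reducing power, overlapped between stages. Thioredoxin-2 (Cluster-9520.4677) was at 63.2, 71.3 and 86.2 in adults, against 49.5, 111.3 and 100.5 in nymphs. Nymph replicate 1 was the lowest of all, and the log2 difference was -0.17 ± 0.51 SE (limma adjusted p = 0.935), with the sign turned without nymph replicate 2. Mitochondrial thioredoxin (Cluster-9520.6074) was at 56.1, 23.1 and 29.7 in adults, against 23.1, 39.1 and 45.3 in nymphs (log2 difference -0.03). Thioredoxin reductase 1 (Cluster-9520.4799), which passes electrons from NADPH to thioredoxin, was at 3.17, 13.9 and 12.2 in adults, against 7.39, 20.6 and 17.9 in nymphs. Replicate 1 was the lowest library of each stage for that enzyme (log2 difference -0.69, limma adjusted p = 0.787). Cluster-9520.3920, a peroxiredoxin of mitochondria placed here by its name as a thioredoxin-dependent peroxide reductase, gave a log2 difference of -0.70 with overlap. Thioredoxin-like protein 1 (Cluster-9520.6274) was at 4.27, 5.34 and 4.18 in adults, against 6.15, 9.78 and 7.91 in nymphs, without overlap (log2 difference -0.66, limma adjusted p = 0.755). Under every other scaling its stages overlapped.

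The 3 thioredoxin-fold members with adults above nymphs and no overlap were of low abundance, and none passed the test. Cluster-12050.0, a thioredoxin domain protein whose closest match is protein disulfide-isomerase A4, was at 6.03, 5.89 and 8.62 in adults, against 3.57, 0.536 and 2.12 in nymphs. Every adult library was above every nymph library, and the log2 difference of 1.47 ± 0.64 SE was the largest positive one in the set (limma adjusted p = 0.531). The homolog of selenoprotein T (Cluster-6050.0), a thioredoxin reductase-like protein, was at 6.74, 7.65 and 7.47 in adults, against 6.43, 4.15 and 2.35 in nymphs. Thioredoxin-related transmembrane protein 2 (Cluster-9520.4682) was at 6.84, 7.53 and 6.66 in adults, against 3.78, 5.31 and 3.98 in nymphs. Neither overlapped between stages, with log2 differences of 0.71 and 0.59 (limma adjusted p = 0.754 and 0.773). On deposited FPKM and on equal totals all 3 overlapped.

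The homolog of thioredoxin domain-containing protein 5 (Cluster-9520.6860), a disulfide oxidoreductase in mammals, was at 17.5, 15.7 and 7.52 in adults, against 9.27, 6.14 and 3.56 in nymphs. Adult replicate 3 lay inside the nymph range there (log2 difference 0.99 ± 0.57 SE, limma adjusted p = 0.707). Thioredoxin domain-containing protein 11 (Cluster-9520.4769) was carried by adult replicate 2, at 11.03 against 0.811 and 3.28 in the other adults and 1.14 to 2.44 in nymphs.

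The glutaredoxins, which use glutathione to reduce disulfides or to hand on iron-sulfur clusters, had 4 clusters, and glutamate--cysteine ligase, the enzyme that starts glutathione synthesis, had 2. The most abundant, named glutaredoxin-C3 (Cluster-9520.3774), was at 94.97, 53.6 and 102.9 in adults, against 50.8, 49.2 and 79.6 in nymphs. Adult replicate 2 lay within the nymph range, and the log2 difference of 0.46 ± 0.50 SE turned to -0.0516 on equal totals (limma adjusted p = 0.807 before). Glutaredoxin 3 (Cluster-9520.3548) was at 7.41, 5.67 and 10.6 in adults, against 11.6, 11.2 and 13.04 in nymphs, without overlap (log2 difference -0.58, limma adjusted p = 0.77). On deposited FPKM and on equal totals its stages overlapped. The regulatory subunit of the ligase (Cluster-9520.1493) was listed at 0 in adult replicate 1 and at 8.05 and 12.3 in the other adults, against 4.41, 5.87 and 10.9 in nymphs. Its log2 difference of -0.63 became 0.55 without adult replicate 1. The single methionine sulfoxide reductase (Cluster-9520.6101), which repairs oxidised methionine, was at 0, 0.104 and 1.98 in adults, against 1.41, 2.25 and 11 in nymphs. Nymph replicate 3 set its mean, and the stages overlapped (log2 difference -1.61 ± 0.87 SE, limma adjusted p = 0.667).

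The ferritins and transferrin overlapped between stages on the rescaled scale. Soma ferritin (Cluster-9520.3889), named after a cytosolic ferritin of snails, was at a rescaled FPKM of 296.9, 78.7 and 134.6 in adults, against 308.1, 173.9 and 290.7 in nymphs. Adult replicate 1 lay among the nymph values only after rescaling: on deposited FPKM adults were at 84.2, 129.3 and 209.8 and nymphs at 315.1, 236.7 and 287.8, without overlap. The log2 difference was -0.76 ± 0.60 SE (limma adjusted p = 0.754), -1.26 without adult replicate 1 and -0.34 without adult replicate 2.

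The ferritin subunit (Cluster-9520.746) was at 36.9, 12.7 and 23.2 in adults, against 75.9, 14.9 and 17.3 in nymphs. Nymph replicate 1 alone was high, and without it the log2 difference turned to 0.43 from -0.28 (limma adjusted p = 0.841 and 0.919). That library also had the highest cathepsin sum, 6788.7, and a link between them was not tested. Soma ferritin over ferritin subunit was 8.04, 6.20 and 5.80 in adults, against 4.06, 11.7 and 16.8 in nymphs. Transferrin (Cluster-9520.3214) was at 23.0, 11.4 and 18.0 in adults, against 34.0, 15.0 and 20.8 in nymphs (log2 difference -0.37, limma adjusted p = 0.851). A further cluster with an ovotransferrin name, Cluster-9520.6584 of 3755 bases, had a deposited FPKM of 3.54 in adult replicate 2 and 2.94 in nymph replicate 1, under 1 elsewhere, and was not tested. Its domain match is to Sec23/Sec24, so its name is uncertain.

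The iron-sulfur proteins, 15 clusters with 13 tested, had a median log2 difference of -0.49. The leading member was the homolog of CDGSH domain protein 2 (Cluster-9520.4645), a membrane-anchored iron-sulfur protein, at 6.84, 20.9 and 32.3 in adults, against 43.4, 23.6 and 50.5 in nymphs. Adult replicate 3 exceeded nymph replicate 2, and the log2 difference was -1.10 ± 0.63 SE (limma adjusted p = 0.709). ISCU (Cluster-6235.0), the scaffold on which clusters are built, was at 10.6, 18.3 and 35.4 in adults, against 27.4, 21.3 and 44.6 in nymphs. The iron-sulfur subunit of succinate dehydrogenase (Cluster-9520.4903), an enzyme of the respiratory chain and citric acid cycle that the rule also took, was at 13.5, 25.3 and 26.6 in adults, against 29.1, 28.5 and 28.4 in nymphs. Adults lay below nymphs without overlap, by a small margin and only on this scaling (log2 difference -0.44, limma adjusted p = 0.811).

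NUBPL, an assembly factor for complex I of the respiratory chain, had 2 clusters. Cluster-6214.0 was at 0, 0.122 and 0 in adults, against 4.34, 0.904 and 3.93 in nymphs (log2 difference -1.83 ± 0.67 SE, limma adjusted p = 0.401). It rests on 0, 1 and 0 fragments in adults, against 24, 7 and 21 in nymphs. It is the 1 tested member that met the filter through the libraries of 1 stage alone, so its direction was set by the filter. The other cluster, Cluster-9195.0, reached an FPKM of 1 in adult replicate 2 and nymph replicate 1 and was not tested. Iron-sulfur cluster assembly 1 (Cluster-9520.2385) went the other way, at 13.6, 6.91 and 1.34 in adults, against 0.949, 0 and 6.49 in nymphs (log2 difference 1.40 ± 0.94 SE). Ciao1 (Cluster-9520.3665), a scaffold of cytosolic assembly, was at 8.11, 8.77 and 11.6 in adults, against 6.02, 8.64 and 12.5 in nymphs, with overlap.

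**Figure D4:**
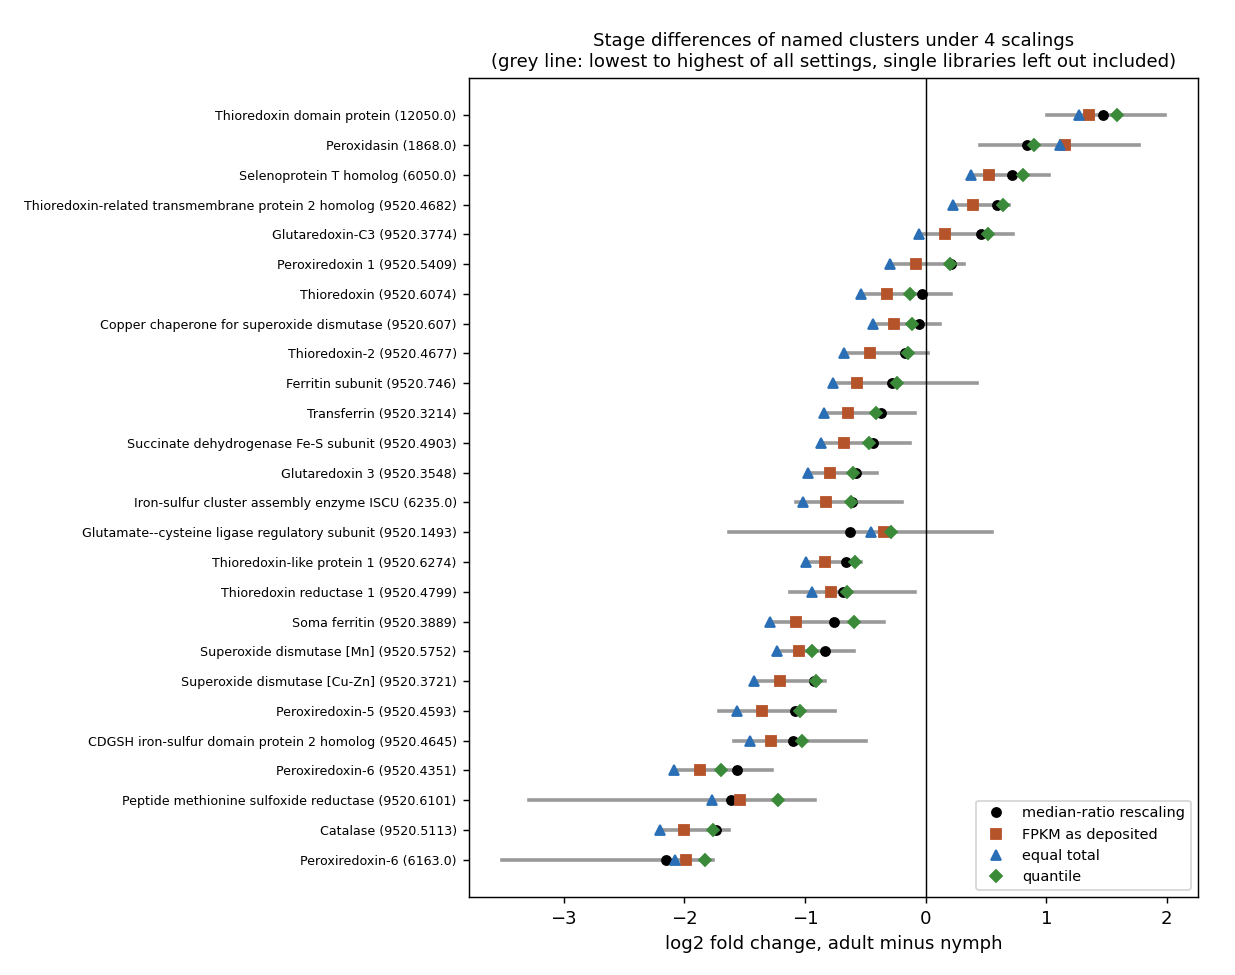
Log2 fold change, adult minus nymph, of the 26 named members that were tested, under 4 scalings (symbols) and as a range over the main and 16 other settings (grey lines). Catalase and both peroxiredoxin-6 clusters stay below -1 throughout; glutaredoxin-C3, peroxiredoxin 1, thioredoxin and others near 0 cross it.

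Other genes of the same pathways also gave no call over all clusters. They were listed by name patterns alone, so a list can hold clusters of another role. The glutathione list took a haemocyte protein-glutamine gamma-glutamyltransferase (Cluster-9520.3041) and gamma-glutamyl hydrolases. The NADPH list took a probable hydroxyacid-oxoacid transhydrogenase (Cluster-9520.4003). Glutathione supply and conjugation had 29 tested clusters, 0 called, 23 below 0 and a median of -0.73. Its most abundant member, glutathione S-transferase 1 isoform D (Cluster-9520.4370), which joins glutathione to foreign or oxidised compounds, was at 74.2, 30.8 and 42.5 in adults, against 527.6, 112.1 and 150.5 in nymphs (log2 difference -2.15, limma adjusted p = 0.314). A glutathione S-transferase of unspecified class (Cluster-9520.6178) was at 48.9, 73.0 and 54.3 in adults, against 118.0, 123.5 and 107.1 in nymphs (log2 difference -0.99, limma adjusted p = 0.585). After rescaling, both lay lower in every adult library than in any nymph library, and nymph replicate 1 was far above the rest for the isoform D cluster. On deposited FPKM the stages of Cluster-9520.6178 overlapped, with 119.9 in adult replicate 2 and 106.0 in nymph replicate 3.

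NADPH supply had 8 tested clusters, all below 0, with a median of -0.51 and 0 called. It was led by mitochondrial isocitrate dehydrogenase (Cluster-9520.5938), at 13.1, 29.5 and 30.8 in adults, against 19.6, 72.4 and 62.4 in nymphs. Iron, copper and haem handling had 14 tested with 8 below 0 and a median of -0.14, redox sensing and regulation 5 with 3 below 0 and a median of -0.55, and oxidant-producing enzymes 11 with 6 below 0 and a median of -0.16. None of these 3 lists had a call. Over all tested clusters 61.6% lay below 0 and the median was -0.29; no difference between a list and all clusters was tested.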

How the data were processed

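The authors deposited FPKM per transcript cluster, 1 column per library, with cluster lengths and best database matches; column sums differ between libraries. Per the submitters' processing notes, the tools were DESeq2 1.20.0, featureCounts 1.5.0-p3, HISAT2 2.0.5, fastp and CASAVA 1.8. Their roles, and the tool behind the FPKM, were not stated. No genome entered. Cluster names are those of the best match. Lengths in bases are other values, as deposited by the authors.

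The members and lists were chosen with earlier results of these data known. Fragments were recovered with Python 3.11.15 and NumPy 2.4.6 by fitting, per library, a total and a length offset that make FPKM below 3 whole in clusters of 500 to 1100 bases; in clusters of 1100 to 1500 bases, 99.4% to 99.8% then came out whole (tolerance 0.15; chance would give 30%). FPKM thus divide by length less 217.5 to 293.25 bases, which weighs on short clusters.

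Differences between stages come from limma 3.58.1 (R 4.3.3; trend and robust; stage as the only term) on log2(rescaled FPKM + 1), a scale that understates the change of low clusters. The filter required an FPKM of 1 or more in 3 or more libraries. P-values were adjusted by Benjamini-Hochberg over 11961 clusters, with 0.05 as threshold. Named in full were the 3 most abundant members per role group, any past the threshold, and up to 6 of the largest differences in each direction without overlap and with a mean FPKM of at least 5; other members named were chosen after their values were seen. The alternatives were other pseudocounts, filters and scalings, limma without trend, quality weights, a replicate block and each library left out. The procedures were tested on simulated data. An entry of 0 is given as listed.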

Additional observations from a re-analysis of the deposited data

How the results depend on the processing

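No member passed under any of the 16 alternatives; the smallest adjusted p of a member ran from 0.103 with library quality weights to 0.998 on equal total FPKM (limma). The count over all clusters, 28, was 12 with a pseudocount of 0.1, 104 with no filter, 65 with a mean FPKM filter, 72 on FPKM as deposited, 65 with library quality weights, and 1 to 54 with 1 library left out (1 without adult replicate 2, 4 without adult replicate 1, 54 without adult replicate 3). The median of all tested clusters was -0.29, -0.33 on deposited FPKM, -0.40 on equal totals and -0.02 after quantile normalization; the members' median was -0.44, -0.42, -0.55 and -0.22. Without adult replicate 1 the members' median, -0.09, lay above that of all clusters, -0.17, so the order of these medians rested on that library. Members without overlap, 14, numbered 6 on deposited FPKM and on equal totals, 11 after quantile normalization and 15 to 24 with 1 library left out (28.8% to 46.2% of members tested, against 21.1% to 31.3% of all tested clusters); without adult replicate 2 the shares were 30.6% and 30.7%. These counts were added after seeing the data.

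Of the named members, these turned direction, none past the threshold: glutaredoxin-C3 (Cluster-9520.3774) to -0.0516 on equal totals, and peroxiredoxin 1 (Cluster-9520.5409) to -0.084 on deposited FPKM and -0.29 on equal totals. With 1 library left out the log2 difference ranged from -1.30 to 0.55 for the ligase subunit (Cluster-9520.1493), -0.72 to 0.43 for the ferritin subunit (Cluster-9520.746), -0.21 to 0.12 for the copper chaperone (Cluster-9520.607), -0.55 to 0.0176 for thioredoxin-2 (Cluster-9520.4677) and -0.37 to 0.21 for mitochondrial thioredoxin (Cluster-9520.6074). The cause was not tested.

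Replicate numbers are shared by the stages only as numbers: deviations of same-numbered libraries correlated at 0.165, -0.043 and 0.213, and adult replicate 2 correlated best with nymph replicate 1. With a replicate block 0 members passed, with 0.247 as the smallest adjusted p (limma). Fragments of adult replicate 1 limit the low members: 26 of 66 were listed at 0 there.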
